A study of Homo sapiens with 6 samples.

Results

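The genes of nucleocytoplasmic transport were described in human HEK-293T cells that expressed RfA1, a reflectin protein of squid. Members were chosen by symbol from the deposited gene table: the NUP, KPNA, KPNB, IPO, TNPO and XPO families, together with RAN, RANBP1, RANBP2, RANGAP1, RCC1, NXF1, CSE1L and TPR. Of 16655 genes in the table, 55 carried such a symbol and 53 had at least 10 counts in at least 3 of the 6 libraries. These 53 members all had at least 10 counts in all 6 libraries, and all 53 were among the 13002 genes that were tested. The other 2 were the importin alpha gene KPNA7 and NUP210L, a paralog of the pore membrane protein gene NUP210, with 0 to 4 counts in each library, while the member with the fewest counts, NUP62CL, had at least 146. The members were sorted by role into 24 nucleoporins, 24 transport receptors, 4 genes of the Ran cycle and the mRNA export receptor gene NXF1.

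HEK-293T is a transformed human embryonic kidney line that takes up plasmids readily. Cells in 10-cm dishes received either pEGFP-C1 with RfA1, which encodes RfA1 fused to green fluorescent protein (RfA1 cells, n = 3), or the same plasmid without an insert (GFP cells, n = 3), by Lipofectamine transfection, and total RNA was taken after 24 h. Expression was transient and no sorting of transfected cells is described, so that each library averages over transfected and untransfected cells, and fewer expressing cells cannot be told apart from less RNA per cell. The labels do not say that the libraries of a group came from separate cultures, and the p-values then measure only the spread between these libraries. The study asked how RfA1 variants divide between cytoplasm and nucleus and looked for transport proteins among their partners, and the comparison here asks whether the RNA of such genes differed between RfA1 and GFP cells.

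Nuclear pores are large protein channels through the nuclear envelope. Scaffold nucleoporins build an outer and an inner ring, a membrane ring anchors them, and nucleoporins rich in phenylalanine-glycine repeats fill the channel and form the cytoplasmic filaments and the nuclear basket. Importins carry cargo into the nucleus and release it when they bind RAN-GTP, exportins bind cargo together with RAN-GTP, and the RAN gradient is set by the exchange factor RCC1 in the nucleus and the activating protein RANGAP1 outside it.

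Library depth was 10272306 to 11566284 counts, of which the members took 0.909% to 1.08%. All 10 markers of the HEK-293T line were at 1 TPM (transcripts per 1000000) or more in every library, and their summed level was 968 to 1150 TPM in GFP cells and 1012 to 1209 TPM in RfA1 cells. Of 18 markers of fibroblasts, blood, liver, endothelium and keratinocytes, 14 were in the table and 2 (COL1A1 and CD68) reached 1 TPM in every library, with sums of 16.9 to 21.5 TPM and 18.0 to 19.99 TPM. Transcripts of RfA1 and of GFP were not analysed here, so that the group labels were not checked against them. RfA1 replicate 2 stood apart from the other RfA1 libraries: on the first principal component, which held 44.6% of the variance, it scored 10.1, beside -16.5 and -22.0 for RfA1 replicates 1 and 3 and -2.18 to 18.2 for GFP cells. The same axis moved with GC content, the share of G and C bases in a gene's transcript. The Spearman correlation over genes between a library's deviation from the mean and GC content was 0.649, 0.493 and 0.485 in GFP replicates 2 and 3 and RfA1 replicate 2, and -0.224, -0.586 and -0.660 in GFP replicate 1 and RfA1 replicates 1 and 3. Many of the counts and log2 fold changes are therefore also given without RfA1 replicate 2, with a correction for GC content, or with both. This correction was not made for the shares of TPM.

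No member was past an adjusted p of 0.05 by the quasi-likelihood test of edgeR, where 0.0769% of all tested genes were. At an unadjusted p under 0.05 there were 12 of 53 members (22.6%), 11 with a higher and 1 with a lower level in RfA1 cells, while 13.9% of all tested genes reached that value, 7.3% higher and 6.64% lower. DESeq2 called 1 member, the importin alpha gene KPNA3, where 0.254% of all genes were called. The 3 RfA1 libraries lay above or below all 3 GFP libraries in 7 of 53 members (13.2%), beside 17.9% of all tested genes. Of the 7, 5 were higher and 2 lower in RfA1 cells, where 9.86% and 8.01% of all tested genes were. The 12 held 5 of the 24 nucleoporins and 7 of the 24 receptors, and no Ran cycle gene. Both counts depended on single libraries. The count at an unadjusted p under 0.05 was 5, 4, 5 and 5 of 53 members without GFP replicate 2, GFP replicate 3, RfA1 replicate 1 and RfA1 replicate 3 in turn, beside 6.55%, 7.45%, 6.7% and 6.82% of all tested genes. It was 33 of 53 members without RfA1 replicate 2, beside 34.9% of all tested genes. The count without overlap was 24 of 53 members without GFP replicate 1, beside 36.1% of all tested genes. It was 40 of 53 members without RfA1 replicate 2, beside 50.9% of all tested genes. In both, fewer libraries have to be separated.

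The members were spread around a small positive difference. The log2 fold change (RfA1 over GFP) was positive in 42 of 53 members, against 49.5% of all tested genes, with a median of 0.13 where that of all tested genes was -0.0024. It ran from -0.34 for IPO13 to 0.46 for KPNA3. The median was 0.14 over the nucleoporins and 0.12 over the receptors. By structure it was 0.19 in the outer ring, 0.14 in the inner ring, 0.091 in the central channel, 0.088 in the cytoplasmic filaments and 0.18 in the nuclear basket, and among the carriers it was 0.19 for importins alpha, 0.063 for importins beta and transportins and 0.14 for exportins. The standard error of a single member's log2 fold change had a median of 0.090.

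**Figure D1:**
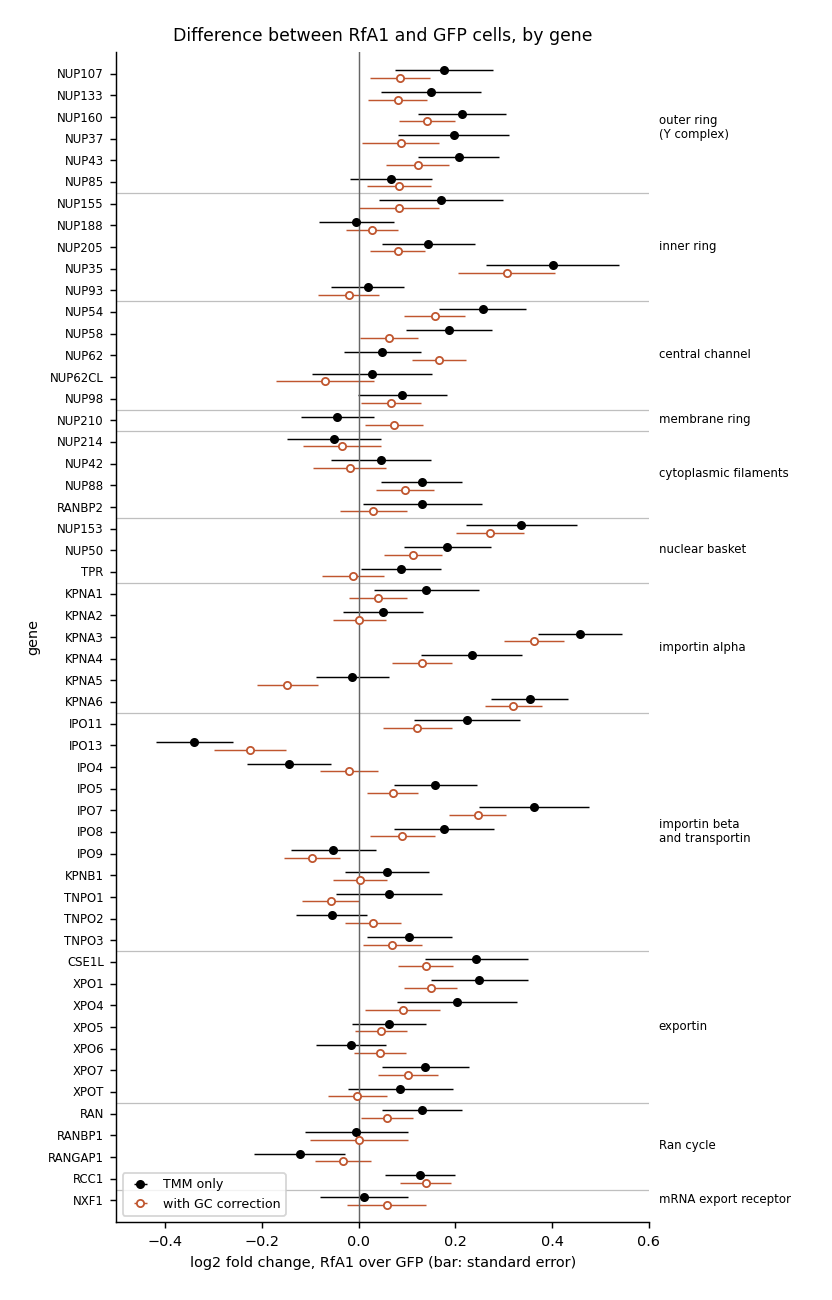
Log2 fold change of each of the 53 members, RfA1 over GFP, with bars of 1 standard error from edgeR, grouped by role (filled points without, open points with the GC correction). Most filled points lie right of 0, with KPNA3 at 0.46 and IPO13 at -0.34 as the extremes.

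Without the GC correction, the shift was not shared by the 3 RfA1 libraries. Relative to the mean of the GFP cells, the median member was at 0.193 and 0.206 on the log2 scale in RfA1 replicates 1 and 3 but at -0.0017 in RfA1 replicate 2, and at 0.089, -0.078 and -0.021 in the GFP libraries. With the GC correction it was at 0.084, 0.028 and 0.094 in RfA1 replicates 1, 2 and 3. The GFP libraries were then at 0.047, -0.048 and -0.021. The counts that follow are without this correction. RfA1 replicate 2 was the lowest RfA1 library in 41 of 53 members, compared with 44.6% of all tested genes. Its median thus lay within the range of the GFP medians, while RfA1 replicates 1 and 3 were both above every GFP library in 34 of 53 members (26.0% of all tested genes showed that order). Without RfA1 replicate 2, edgeR called 24 of 53 members at the same adjusted p, beside 20.1% of all tested genes. In RfA1 cells 21 of them were higher, beside 8.56% of all tested genes, and 3 were lower, beside 11.5%. The 3 lower ones were IPO13, IPO4 and RANGAP1. None of these 3 was called when the GC correction was made and RfA1 replicate 2 was left out. Their log2 fold changes were then -0.15, -0.02 and -0.09 (adjusted p = 0.218, 0.892 and 0.297 in edgeR). With any other single library left out, edgeR called 0 of 53 members and 0 to 4 of all tested genes at the same adjusted p. The part of the position of RfA1 replicate 2 in these counts was not tested.

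**Figure D2:**
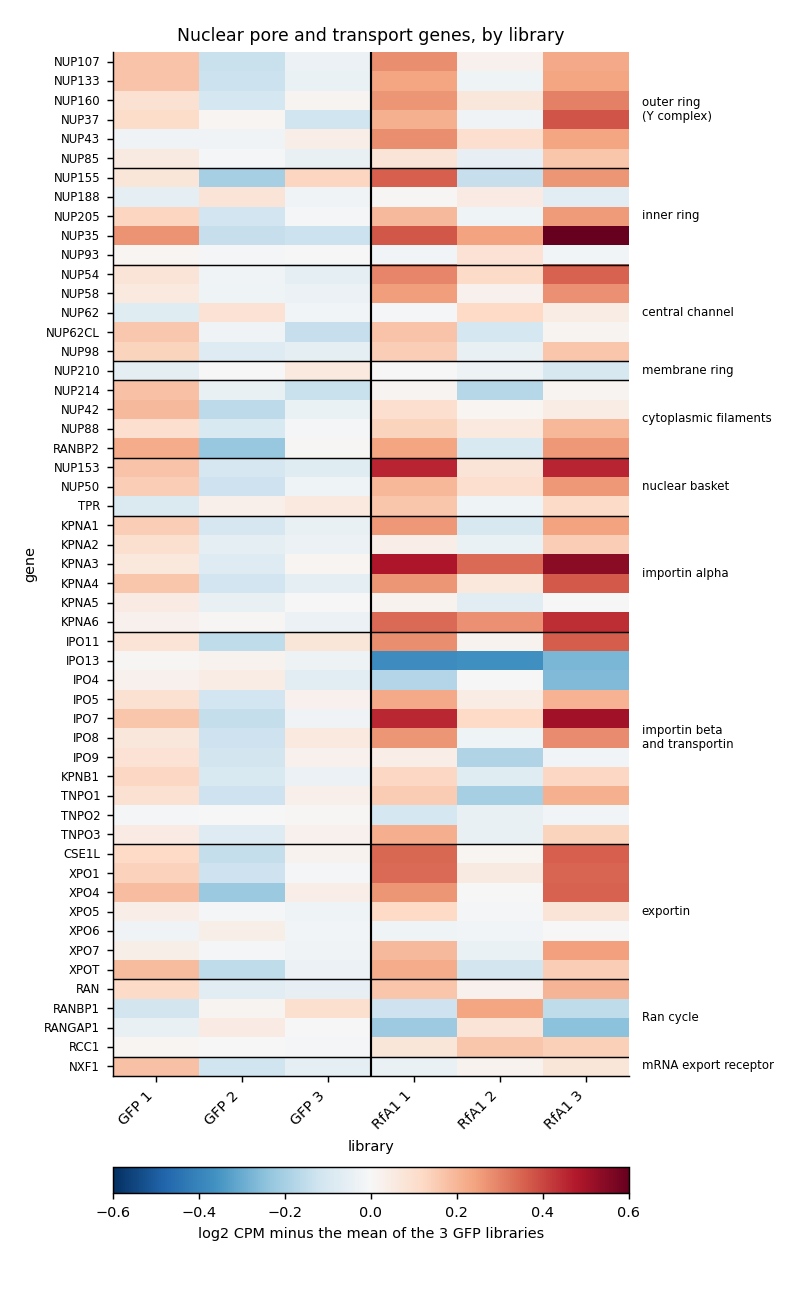
Deviation of each member from its mean in the GFP cells (colour, log2 CPM), with the 6 libraries as columns and the members as rows by role. RfA1 replicates 1 and 3 are mostly above the GFP mean, and RfA1 replicate 2 resembles the GFP libraries, with a median of -0.0017.

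GC content moved with the same values. The median transcript of a member had 43.7% GC against 49.1% over all tested genes, and 40 of 53 members were below the latter. Across members the log2 fold change and GC content had a Spearman correlation of -0.641 (n = 53 genes, all from the same 6 libraries), beside -0.547 over all tested genes. With the GC correction it was -0.221 for members and -0.024 for all tested genes. The corrected median log2 fold change of the members was 0.071, beside 0.0057 for all tested genes, and 41 members were positive, beside 51.9% of all tested genes. After this correction edgeR called 3 of 53 members, KPNA3, KPNA6 and IPO7, beside 1.58% of all genes. All 3 were higher in RfA1 cells, where 1.14% of all genes were called higher. With the correction the groups did not overlap in 16 of 53 members, beside 20.8% of all tested genes. Of the 16, 14 were higher and 2 lower, beside 12.2% and 8.57% of all tested genes. The 2 lower ones were IPO13 and KPNA5, where without the correction they were IPO13 and TNPO2. With the correction and without RfA1 replicate 2, a fit added after the data were seen, edgeR called 7 of 53 members, beside 6.66% of all genes. All 7 were higher in RfA1 cells, where 3.69% of all genes were called higher and 2.97% lower. They were CSE1L, IPO7, KPNA3, KPNA6, NUP153, NUP62 and XPO1. The Spearman correlation between fold change and transcript length over the members was 0.0076. Whether GC content had a part in these differences was not tested.

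**Figure D3:**
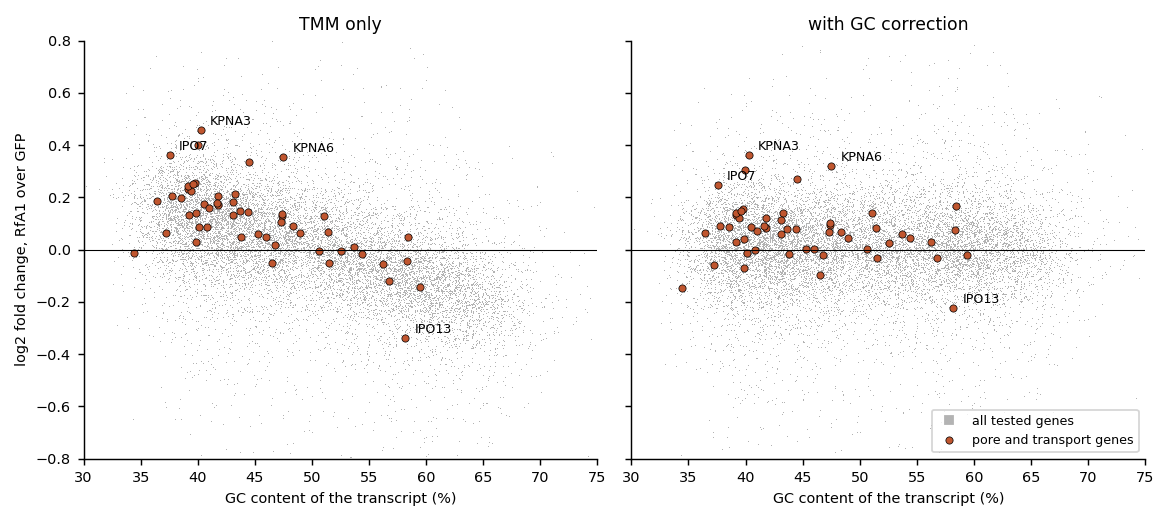
Log2 fold change against the GC content of 1 transcript per gene for the members (large points) and all tested genes (grey dots, those beyond 0.8 either way not shown), without and with the correction for GC content. The slope from members with low to members with high GC content, with a Spearman correlation of -0.641, is reduced to -0.221 by the correction.

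Importins alpha are the adaptors that read the classical nuclear localization signal of a cargo and hand it to importin beta. KPNA3 (importin alpha-4, NCBI Gene 3839) had the largest difference of all members. Its normalised level was 57.0, 51.8 and 55.1 CPM (counts per 1000000 normalised counts) in the GFP libraries and 76.4, 69.2 and 79.5 CPM in the RfA1 libraries. All RfA1 libraries, RfA1 replicate 2 included, were above all GFP libraries. The means were 54.6 ± 2.64 CPM and 75 ± 5.26 CPM (SD, n = 3), a log2 fold change of 0.46 (SE 0.0873) with an adjusted p of 0.149 in edgeR. With the GC correction the difference was 0.36 (adjusted p = 0.00444, edgeR), and without RfA1 replicate 2 it was 0.51 (adjusted p = 0.000898, edgeR). With any other single library left out, the adjusted p of KPNA3 ran from 0.212 to 0.662 in edgeR.

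KPNA6 (importin alpha-7, NCBI Gene 23633) is another adaptor of this family. It was at 84.0, 82.8 and 80.4 CPM in GFP cells and at 104, 99.8 and 112 CPM in RfA1 cells. Here too the groups did not overlap. This was a log2 fold change of 0.35 (SE 0.0790, adjusted p = 0.175 in edgeR), with 0.32 (adjusted p = 0.00812) after the GC correction and 0.39 (adjusted p = 0.00270) without RfA1 replicate 2.

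The other importins alpha differed less. KPNA4, a close relative of KPNA3, was at 82.4, 68.0 and 70.9 CPM in GFP cells and at 88.4, 76.7 and 95.0 CPM in RfA1 cells. Its groups overlapped through RfA1 replicate 2, which was below GFP replicate 1. The log2 fold change of KPNA4 was 0.23 (SE 0.104, adjusted p = 0.349 in edgeR), 0.13 (adjusted p = 0.305) after the GC correction and 0.31 (adjusted p = 0.0165) without RfA1 replicate 2. After the GC correction its groups did not overlap. KPNA2, by far the most abundant importin alpha, was at 336, 301 and 306 CPM in GFP cells and at 323, 306 and 348 CPM in RfA1 cells. These ranges overlapped almost wholly, with a log2 fold change of 0.05 (SE 0.0824, adjusted p = 0.791 in edgeR), 0.0016 with the GC correction and 0.09 without RfA1 replicate 2. KPNA1 and KPNA5 had log2 fold changes of 0.14 and -0.01 (adjusted p = 0.549 and 0.948 in edgeR). With the GC correction they were 0.04 and -0.15 (adjusted p = 0.797 and 0.253). KPNA1 was called without RfA1 replicate 2 (adjusted p = 0.034), and the counts of KPNA5 were not whole numbers, so that its reads may be shared with other genes.

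**Figure D4:**
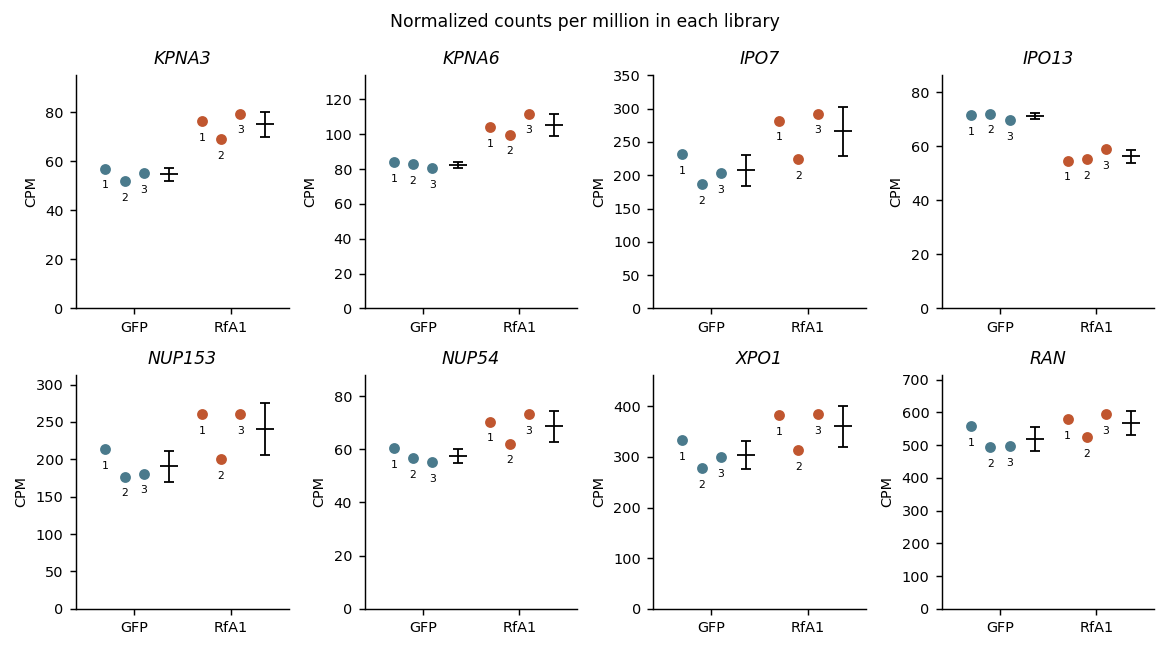
Normalised CPM of 8 members in the GFP and RfA1 libraries (points, numbered by replicate) with the mean and SD of each group beside them. KPNA3 and KPNA6 are higher and IPO13 is lower in all 3 RfA1 libraries, while in IPO7, NUP153, XPO1 and RAN RfA1 replicate 2 lies within the range of the GFP cells. The values are without the GC correction.

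Since TPM is scaled by length, the make-up of the importin alpha pool could be compared within a library. KPNA2 gave 72.6%, 73.0% and 72.7% of the summed importin alpha TPM in GFP cells and 69.1%, 70.8% and 70.1% in RfA1 cells. All RfA1 libraries were thus below all GFP libraries, with a mean difference of -2.79 percentage points (two-sided exact permutation test, p = 0.1, which is the lowest that 3 against 3 libraries can give). The share of KPNA3 was 5.49 ± 0.169% in GFP cells and 6.99 ± 0.0797% in RfA1 cells (SD, n = 3), and that of KPNA6 was 4.63 ± 0.231% and 5.47 ± 0.102%, again without overlap and with the same exact p of 0.1. KPNA5 had a lower share, 4.37 ± 0.0402% against 4.03 ± 0.249% (SD, n = 3, exact permutation p = 0.1). KPNA1 and KPNA4 overlapped between the groups (exact permutation p = 0.5 and 0.2). Over 7 shares, these 6 and the exportin share given with the exportins, the Benjamini-Hochberg value was 0.14 for each of the 5 with p = 0.1 from the exact permutation test, and none can pass 0.05 in this design.

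**Figure D5:**
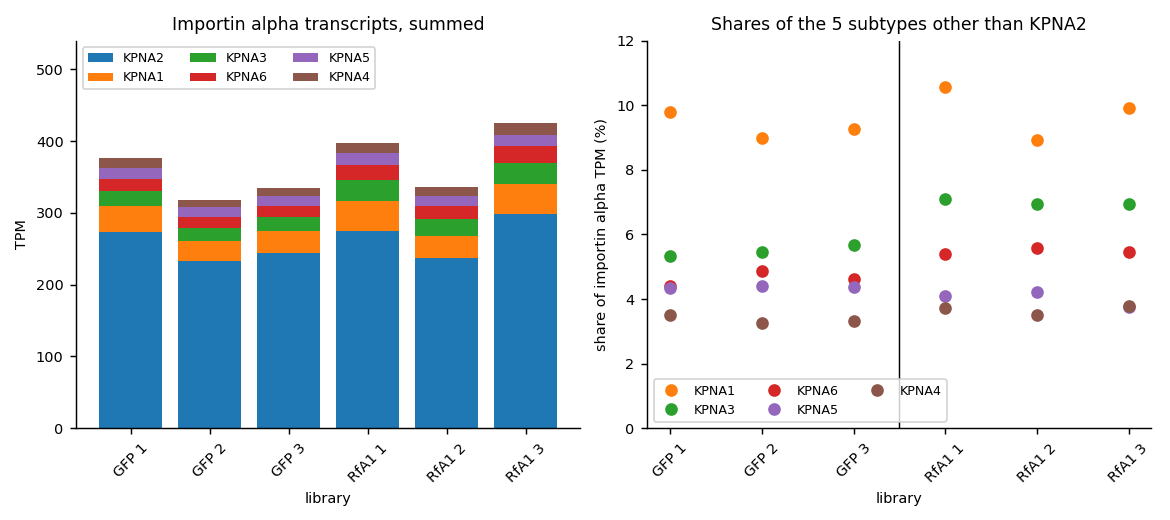
Summed importin alpha TPM in each of the 6 libraries, stacked by gene (left), and the share of each gene other than KPNA2 in that sum, in percent (right). KPNA2 holds 69.1% to 73.0% of the pool, and its share is lower and that of KPNA3 and KPNA6 higher in all 3 RfA1 libraries.

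The promoters of the 4 members with the smallest p are shown, so that the sequence before each start can be set beside its value. They are the 250 bases before the RefSeq start (GRCh38.p14) on the gene's strand: KPNA3 at chr13:49792683-49792932 (minus strand), KPNA6 at chr1:32107806-32108055, IPO7 at chr11:9384402-9384651 and IPO13 at chr1:43946700-43946949 (plus strand). Capitals mark matches, on either strand, to the letters of the CCAAT box (CCAAT), the GC box (GGGCGG), the ETS core (CCGGAAG) and the TATA box (TATAAA).
KPNA3: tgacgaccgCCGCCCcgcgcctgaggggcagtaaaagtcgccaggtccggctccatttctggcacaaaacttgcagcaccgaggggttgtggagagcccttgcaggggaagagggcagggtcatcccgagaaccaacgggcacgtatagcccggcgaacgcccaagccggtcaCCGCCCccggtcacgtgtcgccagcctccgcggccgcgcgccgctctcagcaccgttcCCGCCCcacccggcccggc
KPNA6: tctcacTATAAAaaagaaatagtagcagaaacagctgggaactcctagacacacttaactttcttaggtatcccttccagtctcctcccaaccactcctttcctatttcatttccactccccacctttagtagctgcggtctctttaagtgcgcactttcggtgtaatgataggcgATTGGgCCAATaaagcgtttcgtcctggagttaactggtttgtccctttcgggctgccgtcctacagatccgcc
IPO7: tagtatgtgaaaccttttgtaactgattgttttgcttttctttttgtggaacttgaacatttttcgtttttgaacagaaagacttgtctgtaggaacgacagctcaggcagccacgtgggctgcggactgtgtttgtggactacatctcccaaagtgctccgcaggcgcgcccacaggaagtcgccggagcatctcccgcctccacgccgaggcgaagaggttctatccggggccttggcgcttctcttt
IPO13: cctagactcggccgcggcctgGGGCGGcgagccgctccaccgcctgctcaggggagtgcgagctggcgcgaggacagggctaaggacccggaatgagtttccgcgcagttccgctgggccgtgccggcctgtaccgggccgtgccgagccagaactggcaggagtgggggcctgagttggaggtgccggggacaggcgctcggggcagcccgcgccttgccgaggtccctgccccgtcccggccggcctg
The KPNA3 window held 3 GC boxes, that of KPNA6 held 2 CCAAT boxes and 1 TATA box far from the start, that of IPO13 held 1 GC box, and none of these letters stood in that of IPO7. No base belonged to matches of 2 motifs. The 4 windows thus had no motif in common, and their GC content ran from 47.2% for KPNA6 to 74.8% for IPO13. Of the 53 members, 47 had a promoter in the RefSeq table. The ETS core was in 27.7% of their windows, against 15.8% of the windows of tested genes and 8.82% of all 27305 windows. The CCAAT box was in 44.7% (35.1% and 33.0%), the GC box in 55.3% (68.8% and 42.3%) and the TATA box in 6.38% (5.03% and 11.1%). A match describes the letters and does not show that a factor binds there.

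Importins beta and transportins are the carriers that pass through the pore. Of these 11 genes, 7 had a positive log2 fold change, beside 49.5% of all tested genes. At an unadjusted p under 0.05, 1 was higher and 1 lower, beside 7.3% and 6.64% of all tested genes. IPO7 (NCBI Gene 10527), which carries ribosomal proteins and histone H1, was at 232, 187 and 203 CPM in GFP cells and at 282, 224 and 293 CPM in RfA1 cells. RfA1 replicate 2 was below GFP replicate 1, and the other RfA1 libraries were above all GFP libraries. The log2 fold change was 0.36 (SE 0.113, adjusted p = 0.254 in edgeR), 0.25 with the GC correction (adjusted p = 0.0405) and 0.47 without RfA1 replicate 2 (adjusted p = 0.00143). With the GC correction the groups of IPO7 did not overlap. Its transcript, with 37.6% GC, was among those of low GC content.

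IPO13 (NCBI Gene 9670), a carrier that works in both directions, differed the other way. It was at 71.6, 72.1 and 69.7 CPM in GFP cells and at 54.7, 55.2 and 58.9 CPM in RfA1 cells. The 3 RfA1 libraries were close to each other and all below the GFP libraries, with means of 56.3 ± 2.29 CPM and 71.2 ± 1.24 CPM (SD, n = 3). The difference on the log2 scale was -0.34 (SE 0.0796, adjusted p = 0.179 in edgeR), -0.22 with the GC correction (adjusted p = 0.140) and -0.32 without RfA1 replicate 2 (adjusted p = 0.0107). Its transcript had 58.2% GC.

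KPNB1, importin beta-1, which pairs with the importins alpha, was the most abundant receptor of this class per length, at 152 ± 15.8 TPM in GFP cells and 166 ± 21.2 TPM in RfA1 cells (SD, n = 3). In counts it was at 703, 605 and 630 CPM and at 702, 613 and 703 CPM, with groups that overlapped and a log2 fold change of 0.06 (SE 0.0869, adjusted p = 0.768 in edgeR), 0.0036 with the GC correction and 0.12 without RfA1 replicate 2 (adjusted p = 0.986 and 0.244). TNPO2, a transportin for RNA-binding proteins, was slightly lower in all RfA1 libraries, at 180 to 191 CPM against 192 to 195 CPM, but its log2 fold change of -0.06 was smaller than its SE of 0.0738. With the GC correction TNPO2 was at 0.03 with overlapping groups (adjusted p = 0.853 in edgeR). The other 7 members (IPO4, IPO5, IPO8, IPO9, IPO11, TNPO1 and TNPO3) had log2 fold changes from -0.14 for IPO4 to 0.22 for IPO11, with adjusted p from 0.381 to 0.807 in edgeR. Of these 7, 4 were called without RfA1 replicate 2, beside 20.1% of all tested genes. They were IPO11, IPO5 and IPO8, higher (adjusted p = 0.0229, 0.0421 and 0.0342 in edgeR), and IPO4, lower (adjusted p = 0.0358). With the GC correction these 4 were at 0.12, 0.07, 0.09 and -0.02 (adjusted p = 0.425, 0.551, 0.550 and 0.910 in edgeR).

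Of the 7 exportins, 6 had a positive log2 fold change, beside 49.5% of all tested genes. At an unadjusted p under 0.05, 2 were higher, beside 7.3% of all tested genes. XPO1 (CRM1), the exportin of leucine-rich export signals, was at 333, 277 and 300 CPM in GFP cells and at 383, 314 and 385 CPM in RfA1 cells. CSE1L, which returns importins alpha to the cytoplasm, was at 300, 250 and 280 CPM and at 351, 278 and 354 CPM. In both genes RfA1 replicates 1 and 3 were above the GFP cells and RfA1 replicate 2 was within their range. The log2 fold change was 0.25 for XPO1 (SE 0.10, adjusted p = 0.321 in edgeR) and 0.24 for CSE1L (SE 0.106, adjusted p = 0.347). With the GC correction these were 0.15 and 0.14 with groups that did not overlap (adjusted p = 0.178 and 0.236). Without RfA1 replicate 2 they were 0.34 and 0.35 (adjusted p = 0.00594 and 0.00509). With both changes to the fit, both genes were at 0.18 (adjusted p = 0.0362 for XPO1 and 0.0323 for CSE1L in edgeR).

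XPO4, XPO5, XPO6, XPO7 and XPOT, the last of which exports tRNA, had log2 fold changes from -0.02 for XPO6 to 0.20 for XPO4, with adjusted p from 0.455 to 0.935 in edgeR. Of these only XPO7 was called without RfA1 replicate 2 (log2 fold change 0.22, adjusted p = 0.036), beside 20.1% of all tested genes. With the GC correction XPO7 was at 0.10 (adjusted p = 0.443 in edgeR). Together the exportins gave 42.4%, 42.0% and 41.9% of the summed TPM of exportins, importins beta and transportins in GFP cells and 44.7%, 43.2% and 44.7% in RfA1 cells. The share was higher in all RfA1 libraries, by 2.08 percentage points in the mean, and the two-sided exact permutation p was again 0.1. Without RfA1 replicate 2 the difference was 2.58 percentage points, and that of the KPNA2 share was -3.18. RfA1 replicate 2 was nearest to the GFP cells in this measure too. The median transcript had 40.8% GC among exportins and 45.3% among importins beta and transportins. The share was not corrected for GC content, and whether GC content had a part in it was not tested.

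RAN, the small GTPase that drives the cycle, was at 559, 494 and 498 CPM in GFP cells and at 578, 525 and 595 CPM in RfA1 cells. RfA1 replicate 2 was below GFP replicate 1. The means were 517 ± 36.6 CPM and 566 ± 36.6 CPM (SD, n = 3), with a log2 fold change of 0.13 (SE 0.0831, adjusted p = 0.473 in edgeR). With the GC correction it was 0.06 (adjusted p = 0.637) and without RfA1 replicate 2 it was 0.18 (adjusted p = 0.0752), so that RAN was not called in any of these.

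RCC1, the exchange factor that loads RAN with GTP on chromatin, was at 329, 327 and 324 CPM in GFP cells and at 344, 366 and 360 CPM in RfA1 cells. It was the only 1 of the 4 Ran cycle genes whose groups did not overlap, beside 17.9% of all tested genes. Here RfA1 replicate 2 was the highest library. On the log2 scale the difference was 0.13 (SE 0.0721, adjusted p = 0.432 in edgeR), 0.14 with the GC correction and 0.11 without RfA1 replicate 2 (adjusted p = 0.200 and 0.249). RANBP1, a cofactor of RANGAP1 and per length the most abundant member, was at 1345 ± 85.9 TPM in GFP cells and 1392 ± 137 TPM in RfA1 cells (SD, n = 3). Its counts were 731, 799 and 844 CPM and 724, 929 and 711 CPM, with a log2 fold change of -0.01 (SE 0.106, adjusted p = 0.983 in edgeR) that was 0.0082 when scaled by total library size and 0.00064 with the GC correction. RANGAP1, which makes RAN hydrolyse GTP, differed by -0.12 on the log2 scale with overlapping groups (adjusted p = 0.556), and by -0.23 without RfA1 replicate 2 (adjusted p = 0.0225, edgeR). With the GC correction RANGAP1 was at -0.03 (adjusted p = 0.837 in edgeR). Its counts, too, were not whole in every library.

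The outer ring, or Y complex, forms the scaffold on both faces of the pore. All 6 of its members had a positive log2 fold change, beside 49.5% of all tested genes. The values ran from 0.07 for NUP85 to 0.21 for NUP43 and NUP160, with NUP133, NUP107 and NUP37 at 0.15, 0.18 and 0.20. NUP43 was at 57.9, 58.0 and 60.5 CPM in GFP cells and at 71.3, 63.1 and 69.2 CPM in RfA1 cells, without overlap. NUP160 was at 107, 93.8 and 102 CPM and at 121, 106 and 124 CPM, with RfA1 replicate 2 just below GFP replicate 1. The adjusted p was 0.321 for NUP43 and 0.333 for NUP160 in edgeR, and with the GC correction their log2 fold changes were 0.12 and 0.14 (adjusted p = 0.370 and 0.228). With this correction the groups did not overlap in either gene. NUP85, the most abundant of the ring per length, was at 56.9 ± 2.91 TPM in GFP cells and 63.0 ± 7.78 TPM in RfA1 cells (SD, n = 3), with an adjusted p of 0.725. Without RfA1 replicate 2, edgeR called NUP43, NUP160, NUP107 and NUP37 (adjusted p = 0.0302, 0.0147, 0.0494 and 0.0427), beside 20.1% of all tested genes. With the GC correction NUP107 and NUP37 were at 0.086 and 0.087 (adjusted p = 0.541 and 0.644 in edgeR).

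In the inner ring, which lines the pore wall, 4 of 5 members had a positive log2 fold change, beside 49.5% of all tested genes. NUP35, a small linker of the ring and the least abundant of these genes in counts, was at 22.8, 17.2 and 17.3 CPM in GFP cells and at 24.6, 22.4 and 28.8 CPM in RfA1 cells. RfA1 replicate 2 was below GFP replicate 1, and the log2 fold change was 0.40 (SE 0.138, adjusted p = 0.278 in edgeR). NUP205, a large scaffold protein, was at 343, 289 and 311 CPM and at 359, 308 and 374 CPM, with overlapping groups, a log2 fold change of 0.14 (SE 0.0959) and an adjusted p of 0.495. NUP155, NUP93 and NUP188 had log2 fold changes of 0.17, 0.02 and -0.0043 (adjusted p = 0.540, 0.924 and 0.981 in edgeR). NUP35, NUP205 and NUP155 were called without RfA1 replicate 2 (adjusted p = 0.0137, 0.0419 and 0.0192), beside 20.1% of all tested genes. With the GC correction they were at 0.31, 0.081 and 0.084 (adjusted p = 0.131, 0.530 and 0.669 in edgeR). The groups then did not overlap in NUP35 but did in NUP205 and NUP155.

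The central channel nucleoporins form the barrier that receptors cross, and all 5 had a positive log2 fold change, beside 49.5% of all tested genes. NUP54 was at 60.6, 56.7 and 55.2 CPM in GFP cells and at 70.4, 62.1 and 73.4 CPM in RfA1 cells. Every RfA1 library was above every GFP library, with a log2 fold change of 0.26 (SE 0.0906, adjusted p = 0.286 in edgeR), 0.16 after the GC correction (adjusted p = 0.223) and 0.32 without RfA1 replicate 2 (adjusted p = 0.0111). Its partners in the channel complex were NUP58, with a log2 fold change of 0.19 (adjusted p = 0.371, and 0.020 without RfA1 replicate 2), and NUP62, the most abundant of the class at 108 ± 3.71 TPM in GFP cells and 117 ± 3.17 TPM in RfA1 cells (SD, n = 3). With the GC correction NUP58 was at 0.06 (adjusted p = 0.650 in edgeR). NUP62 was at 226, 253 and 235 CPM and at 236, 258 and 245 CPM. These ranges overlapped, and its log2 fold change was 0.05 (SE 0.0796, adjusted p = 0.790 in edgeR). With the GC correction it was 0.17 with groups that did not overlap (adjusted p = 0.137), without RfA1 replicate 2 it was 0.01 (adjusted p = 0.905), and with both it was 0.20 and passed (adjusted p = 0.0233). NUP98 and NUP62CL, a gene similar to NUP62, were at 0.09 and 0.03 (adjusted p = 0.651 and 0.930).

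NUP210, the pore protein that spans the membrane, was at 245, 254 and 265 CPM in GFP cells and at 254, 249 and 238 CPM in RfA1 cells. These values overlapped, and the log2 fold change of -0.04 (SE 0.0756, adjusted p = 0.805 in edgeR) became 0.07 with the GC correction (adjusted p = 0.594).

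On the cytoplasmic filaments no gene reached an unadjusted p of 0.05, while 13.9% of all tested genes did. Without the GC correction the groups overlapped in all 4, while they did not in 17.9% of all tested genes. RANBP2 (NUP358), the giant filament protein with SUMO ligase activity that holds RANGAP1 at the pore, was at 180, 132 and 155 CPM in GFP cells and at 182, 145 and 185 CPM in RfA1 cells. RANBP2 had a difference of 0.13 on the log2 scale (SE 0.124, adjusted p = 0.624 in edgeR), with 0.03 (adjusted p = 0.875) after the GC correction and 0.24 (adjusted p = 0.0785) without RfA1 replicate 2. RANBP2 has near-identical copies in the genome and its counts were not whole numbers, so that its level is uncertain. NUP88, which tethers NUP214, was at 89.4, 78.4 and 82.7 CPM and at 91.6, 86.8 and 95.8 CPM, with a log2 fold change of 0.13 (SE 0.0836, adjusted p = 0.479 in edgeR), 0.10 with the GC correction and 0.17 without RfA1 replicate 2 (adjusted p = 0.464 and 0.140). With the GC correction the groups of NUP88 did not overlap. NUP214 and NUP42, which take part in mRNA export at the filaments, had log2 fold changes of -0.05 (adjusted p = 0.827) and 0.05 (SE 0.102, adjusted p = 0.848), and that of NUP42 was -0.02 with the GC correction (adjusted p = 0.939). NUP42, the most abundant of the class per length, was at 43.9 ± 6.54 TPM in GFP cells and 46.9 ± 3.54 TPM in RfA1 cells (SD, n = 3). In counts it was at 49.4, 38.7 and 41.9 CPM and at 46.3, 43.5 and 44.5 CPM.

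The nuclear basket extends into the nucleoplasm and has NUP153 at its base. NUP153 was at 214, 177 and 181 CPM in GFP cells and at 261, 200 and 261 CPM in RfA1 cells. RfA1 replicates 1 and 3 were well above the GFP cells, and RfA1 replicate 2 lay between GFP replicates 3 and 1. The means were 191 ± 20.5 CPM and 241 ± 34.9 CPM (SD, n = 3), with a log2 fold change of 0.34 (SE 0.115, adjusted p = 0.278 in edgeR), 0.27 after the GC correction (adjusted p = 0.0584) and 0.45 without RfA1 replicate 2 (adjusted p = 0.00170). With both changes to the fit NUP153 was at 0.35 (adjusted p = 0.000554 in edgeR). NUP50, a cofactor of importin alpha release, and TPR, the filament protein of the basket, were at 0.18 and 0.09 (adjusted p = 0.383 and 0.630 in edgeR).

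NXF1, the receptor that carries bulk mRNA through the pore without RAN, was at 125, 102 and 106 CPM in GFP cells and at 107, 112 and 116 CPM in RfA1 cells. The GFP libraries spanned the RfA1 libraries, with a log2 fold change of 0.01 (SE 0.0918, adjusted p = 0.962 in edgeR).

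Genes of the same machinery outside the symbol families were read from lists. The list of 13 other pore components also held SENP1, SENP2 and MAD1L1, which were counted with them. Of these 13 genes, 3 were higher and none lower at an unadjusted p under 0.05 (7.3% and 6.64% of all tested genes). None passed the adjusted p, and the median log2 fold change was 0.017. The 3 were TMEM33, AHCTF1 (ELYS, which seeds pores on chromatin) and the SUMO protease gene SENP1. TMEM33, a membrane protein of the pore and endoplasmic reticulum with the smallest p of this list, was at 45.2, 42.4 and 43.7 CPM in GFP cells and at 53.2, 50.2 and 58.5 CPM in RfA1 cells, without overlap. In edgeR this gave a log2 fold change of 0.30 (SE 0.0897, adjusted p = 0.250). AHCTF1 and SENP1 were at 0.26 and 0.28. With the GC correction TMEM33, AHCTF1 and SENP1 were at 0.18, 0.17 and 0.19 (adjusted p = 0.192, 0.174 and 0.254 in edgeR). Of 11 other cofactors of Ran and the receptors, none was higher and 1 was lower at that p, with the same shares of all tested genes and a list median of 0.076. That gene was RANGRF (MOG1, which binds RAN), at 36.5, 36.4 and 33.4 CPM in GFP cells and at 28.1, 31.2 and 30.8 CPM in RfA1 cells, a log2 fold change of -0.24 (SE 0.0930, adjusted p = 0.313 in edgeR). With the GC correction RANGRF was at -0.16 (adjusted p = 0.351 in edgeR). Without RfA1 replicate 2, edgeR called 20.1% of all genes (8.56% higher, 11.5% lower). There it called 6 of the 13 genes of the pore list, 5 of them higher in RfA1 cells and MAD1L1 lower. Of the 11 cofactors it called 1, RANBP3, which was lower (adjusted p = 0.0362). RANGRF was not called there (adjusted p = 0.0605).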

How the data were processed

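The authors deposited 1 table with NCBI Gene IDs, symbols and, for each library, estimated counts (7.39% to 8.02% of them not whole), TPM and FPKM. Per the labels the processing named HISAT and GRCh38.p13. The counting tool and its strand setting are not given in the sources used here. The deposited FPKM served only as an alternative to TPM for the shares, and the deposited averages were not used.

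Counts were rounded, filtered with filterByExpr (minimum count 10, minimum total 15) and TMM-normalised, and the groups were compared with the robust quasi-likelihood test of edgeR 4.0.16, two-sided, with Benjamini-Hochberg adjustment over 13002 genes. CPM are counts per 1000000 of the normalised library. TPM served for levels between genes. The GC correction entered a spline (5 degrees of freedom) on GC content per library as an offset, with GC content and length from 1 GENCODE 29 transcript per gene. Alternatives were DESeq2 1.42.0, limma 3.58.1, other scalings and filters, a replicate block and each library left out. The main fit, the replicate block, the GC correction and DESeq2 were run on simulated counts with known differences. These had a spread common to all genes, with and without a trend in GC content. The permutation tests, limma and the fits with a library left out were not run on them.

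Members, roles and lists were chosen with earlier results of these data known. Full values are given for the member with the smallest p and with the highest TPM of each role, every member with an unadjusted p under 0.05, RAN and RANBP2, and in each list the gene with the smallest p. Other members are named to account for all of them. No 2 libraries agreed within sampling noise (chi-square per degree of freedom 1.92 to 17.3).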

Additional observations from a re-analysis of the deposited data

How the results depend on the processing

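The median log2 fold change of the members and both shares kept their direction under each alternative run. Counts of members below are out of 53, and the percentages beside them are shares of all tested genes, not of the members. The number of genes past the adjusted p, 10 in edgeR, was 33 with DESeq2 (17 higher, 16 lower), 6 with upper-quartile scaling (4 higher, 2 lower), 20 without the filter on low counts, 4 with limma-trend on log2(TPM + 1) or log2(TPM + 0.1), 18 at an adjusted p of 0.1 and 205 with the GC correction (148 higher, 57 lower). The members past it, 0 in edgeR, were 1 with DESeq2 and 3 with the GC correction, and 16 members did not overlap with the GC correction (20.8% of all tested genes). Same-numbered libraries had correlations of 0.166, 0.321 and -0.143 between their deviations from the group means, so that the numbers were not taken as pairs. With the replicate block there were 625 genes (4.81% of those tested, 309 higher and 316 lower) and 7 members, with 20 members at an unadjusted p under 0.05 (23.6% of all tested genes). The GC correction with the replicate block gave 458 genes (3.52%), 4 members and 16 without overlap (20.8% of all tested genes). Leaving out each library in turn gave 0 to 2636 genes, 0 to 24 members, 4 to 33 members at an unadjusted p under 0.05 (6.55% to 34.9% of all genes) and 7 to 40 without overlap (22.4% to 50.9%), each highest without RfA1 replicate 2. The GC correction without that library, chosen after seeing the data, gave 875 genes, 7 members, 20 at an unadjusted p under 0.05 (21.6% of all genes) and 31 without overlap (38.5%). The cause was not tested.

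Values near 0 changed sign. With the GC correction TPR, XPOT, TNPO1, NUP62CL and NUP93 became negative, and TNPO2, NUP188 and XPO6 became positive. The 25 members chosen for full values were followed under every alternative, and those that changed sign were these. NUP210 was at 0.073 with the GC correction, 0.072 with the block added, 0.013 with both limma settings and 0.13 with the GC correction without RfA1 replicate 2. NUP42 was at -0.018 with the GC correction with and without the block, -0.046 with it without RfA1 replicate 2 and -0.028 to 0.15 with a library left out. RANBP1 was at 0.0082 by total library size, 0.00064 with the GC correction, 0.047 with both limma settings and -0.14 to 0.063 with a library left out. With a library left out, KPNA2 ran from -0.00077 to 0.099 and NXF1 from -0.047 to 0.10. Of the other values of named genes, 419 kept their side of the threshold and 35 newly passed it. Members had 146 to 9750 counts in a library, and the biological coefficient of variation over all genes was 8.83%.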

Other observations

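Genes that act next to the pore were read from lists in the same way. At an unadjusted p under 0.05, 7.3% of all tested genes were higher and 6.64% lower in RfA1 cells. A list of mRNA export genes held those of the TREX and TREX-2 complexes, which package mRNA and dock it at the pore. It also held NCBP1, NCBP2, NCBP3, DDX19A, DDX19B and ERH, which were counted with them. Of its 24 tested genes, 1 was higher and none lower at an unadjusted p under 0.05. None passed the adjusted p in edgeR, and the median log2 fold change was 0.055. That gene was PCID2, a TREX-2 subunit, at 53.6, 54.5 and 53.0 CPM in GFP cells and at 65.8, 56.5 and 65.3 CPM in RfA1 cells, with a log2 fold change of 0.22 (SE 0.0883, adjusted p = 0.321 in edgeR) and no overlap between the groups. With the GC correction PCID2 was at 0.23 (adjusted p = 0.112 in edgeR).

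Of 18 tested genes of the nuclear envelope and lamina, 2 were higher and none lower at an unadjusted p under 0.05, none passed the adjusted p in edgeR, and the median log2 fold change was -0.0032. They were TOR1AIP2, an activator of torsin ATPases, and TMEM43, an inner nuclear membrane protein. TOR1AIP2 had a log2 fold change of 0.26, and of 0.16 with the GC correction (adjusted p = 0.260 and 0.290 in edgeR). TMEM43 was at 61.98, 55.2 and 61.7 CPM in GFP cells and at 75.8, 66.5 and 77.5 CPM in RfA1 cells, without overlap. Its log2 fold change was 0.30 (SE 0.0917, adjusted p = 0.254 in edgeR), and 0.29 (adjusted p = 0.0438) with the GC correction, under which it was the only gene of the list to pass. Without RfA1 replicate 2, where edgeR called 20.1% of all genes (8.56% higher, 11.5% lower), it called 3 of the 24 mRNA export genes, all higher in RfA1 cells, and 5 of the 18 envelope genes, 3 higher and 2 lower.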
